A study of Mus musculus with 3 samples.

Results

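Proliferating lysozyme-high phagocytes were 360 of the 15434 cells kept from mouse Peyer's patches: 128 in the untreated library, 54 after CpG and 178 after R848. Cells were kept if 500 genes or more were detected and mitochondrially encoded genes gave no more than 10% of the UMIs (unique transcript molecules). A cell was lysozyme-high when Lyz1, C1qa, C1qb and C1qc together gave at least 80 of every 10000 UMIs and fewer than 3 Cd79a UMIs were read, and 5690 cells met this limit. Of these, cells with at least 4 UMIs summed over Mki67, Top2a, Birc5 and Ube2c were called cycling. The comparison cells were the 3686 lysozyme-high cells with a sum of 0, called non-cycling here, and the 1644 cells with a sum of 1 to 3 belong to neither. The cells were chosen by these 8 genes and Cd79a, so the values of those genes are given as a description only. A cell in early S phase can have no UMI of the 4 proliferation genes, so a sum of 0 is a limit on these transcripts and not on division.

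Peyer's patches are clusters of lymphoid follicles in the gut wall. Each library pooled 12 female C57BL/6Rj mice (88, 85 and 90 patches for Control, CpG and R848). CD11c+ cells were enriched with magnetic beads, and live cDC1, cDC2, LysoDC (lysozyme-expressing dendritic cells) and macrophages were then sorted with antibodies to CD4, CD11b, CD11c, CD24, XCR1, SIRPa, Bst2 and MHCII. Control mice were untreated and not mock-injected. CpG mice received 125 µg of CpG, DNA that TLR9 senses, and R848 mice 10 µg of R848, which activates TLR7, each intraperitoneally in 100 µL of sterile PBS, 9 h before collection. There was 1 library per group, so no test between groups is possible. Intervals are at 95% and cover counting error only, not differences between mice. The proportions in which the sorted cell types were mixed are not given in the sources used here and can set the shares of cells.

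Most lysozyme-rich phagocytes of Peyer's patches arise from circulating monocytes. CCR2 is the chemokine receptor by which monocytes leave the bone marrow, C1q starts the classical complement cascade and is a macrophage product, and CD4 on mouse intestinal phagocytes marks cells of long residence. A dividing cell first copies its DNA in S phase with replication factors that E2F transcription factors control, and then makes mitotic regulators in G2 and M phase. The late genes are held down in resting cells by the DREAM complex, which acts through the CHR element, and many of them carry CCAAT boxes bound by NF-Y.

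Promoters of 3 of the proliferation genes of the rule and of 2 helicase genes are shown because the S and G2/M genes are described apart below. The windows end at the transcription start annotated by RefSeq, on GRCm38.p6 (mm10), and are written 5′ to 3′ along the strand of the gene. Capitals mark every match to CCAAT, to the CHR word TTTGAA, or to the E2F words TTTGGCGC and TTTCGCGC, on either strand. A match on the opposite strand appears as the reverse complement of the word. Matches overlap in Ube2c (CCAATTGG) and where the E2F words meet in Mcm5 (TTTCGCGCCAAA) and Mcm6 (TTTGGCGCGAAA). Mcm5 and Mcm6 were picked after their matches and values had been seen. The Ube2c window stops 11 bases before the RefSeq start, since another annotation, GENCODE, starts the gene 31 bases before it. The end of the Ube2c window shown, with its TTTGAA match, therefore still lies inside the gene by GENCODE.
Mki67, chr7:135716380-135716629, minus strand: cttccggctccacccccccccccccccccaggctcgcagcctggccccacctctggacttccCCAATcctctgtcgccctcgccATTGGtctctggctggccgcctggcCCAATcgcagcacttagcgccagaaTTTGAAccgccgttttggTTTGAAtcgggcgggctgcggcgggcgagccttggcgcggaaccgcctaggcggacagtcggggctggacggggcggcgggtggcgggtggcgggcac
Top2a, chr11:99024190-99024439, minus strand: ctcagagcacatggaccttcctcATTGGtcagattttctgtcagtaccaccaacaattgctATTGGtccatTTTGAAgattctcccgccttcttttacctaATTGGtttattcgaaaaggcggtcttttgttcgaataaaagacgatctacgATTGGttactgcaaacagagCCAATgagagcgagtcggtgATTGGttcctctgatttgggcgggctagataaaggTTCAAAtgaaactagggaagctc
Ube2c, chr2:164769679-164769917, plus strand: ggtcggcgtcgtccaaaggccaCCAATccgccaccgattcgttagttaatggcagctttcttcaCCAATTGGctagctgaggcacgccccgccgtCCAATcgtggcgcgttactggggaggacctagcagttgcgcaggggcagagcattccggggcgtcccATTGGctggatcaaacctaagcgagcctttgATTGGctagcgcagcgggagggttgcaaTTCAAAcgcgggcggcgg
Mcm5, chr8:75109259-75109508, plus strand: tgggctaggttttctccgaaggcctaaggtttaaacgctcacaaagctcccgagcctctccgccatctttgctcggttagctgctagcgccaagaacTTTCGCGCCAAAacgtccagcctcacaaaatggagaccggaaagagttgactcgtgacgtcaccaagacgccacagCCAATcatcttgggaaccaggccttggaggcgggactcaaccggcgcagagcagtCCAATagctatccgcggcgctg
Mcm6, chr1:128359706-128359955, minus strand: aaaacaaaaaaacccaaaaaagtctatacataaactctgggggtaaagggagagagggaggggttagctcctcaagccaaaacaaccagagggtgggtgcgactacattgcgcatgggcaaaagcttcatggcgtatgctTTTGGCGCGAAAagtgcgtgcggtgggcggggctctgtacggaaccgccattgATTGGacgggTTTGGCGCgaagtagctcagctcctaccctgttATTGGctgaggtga

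The Mki67 window held 3 CCAAT and 2 TTTGAA matches, Top2a 6 and 2, and Ube2c 6 and 1, and none of these 3 held an E2F word. The Mcm5 window held 2 CCAAT matches and 1 match to each E2F word. Mcm6 held 2 CCAAT matches, 2 of TTTGGCGC and 1 of TTTCGCGC, and neither helicase window held TTTGAA. The fourth gene of the rule, Birc5, had none of these letters in its window, which says nothing of the factors. Among the 250-base windows of all 32851 promoters in the table, 33.8% held CCAAT, 15.99% TTTGAA, 0.654% an E2F word and 5.55% both CCAAT and TTTGAA. In 48 promoters of the 43 G2/M-list genes that matched the table, the same shares were 75% for CCAAT, 37.5% for TTTGAA, 4.17% for an E2F word and 31.25% for CCAAT with TTTGAA. In 36 promoters of 32 S-list genes they were 69.4%, 16.7%, 16.7% and 11.1%. A match is a description of letters, not a site of binding.

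The libraries held 43537067 to 46556726 UMIs over 5049 to 5133 barcodes with an agonist and 5344 in Control, with medians of 7494 to 8223 UMIs per cell. Cycling cells were deeper than non-cycling cells: the medians were 13755 against 9874.5 UMIs in Control, 16391 against 12455 with CpG and 15243.5 against 11728 with R848. Cells with a sum of 1 to 3 lay between, at 10898.5, 14760 and 13316. The rule counts raw UMIs, so deeper cells reach a sum of 4 more easily, and its part in the gap was not tested. The summed counts of cycling cells were 1713877, 882160 and 2720938 UMIs, so the CpG values rest on the fewest molecules. Free RNA was estimated at 2.61% to 4.17% of UMIs from C1q in 438 Control, 3042 CpG and 2319 R848 cells below the lysozyme limit with at least 5 UMIs summed over Ccr7 and Fscn1. Between 33 and 42 barcodes occurred in both libraries of a pair, and in none of them was the cell a member in both.

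The phagocyte genes of the rule are given as a description, since they chose the cells. Lyz1 (lysozyme) and C1qa, a chain of C1q, were read in every one of the 360 cells. Lyz1 stood at 16047, 13202 and 9877 CPM (counts scaled to the same total in each class of cells) in cycling cells of the 3 libraries, against 18455, 15272 and 11859 in non-cycling cells. Lyz2, a near-identical gene whose reads the counting could share with Lyz1, stood at 43361, 44766 and 29016 against 52123, 50292 and 36015 CPM. C1qa stood at 7054, 7489.6 and 6409.6 against 8552, 8495 and 7120.5 CPM. Lyz1, Lyz2 and C1qa were thus lower in cycling than in non-cycling cells of each library.

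The 4 proliferation genes were read together in many of the cells. Birc5, the survivin subunit of the chromosomal passenger complex, was read in 116 of 128, 41 of 54 and 138 of 178 cells. Mki67, which coats mitotic chromosomes, was read in 102, 47 and 146 of them, and Top2a, the topoisomerase that untangles replicated DNA, in 100, 37 and 132. Ube2c, the ubiquitin ligase partner that drives exit from mitosis, was read in 99, 34 and 83. All 4 were read in 51.6% of Control, 35.2% of CpG and 23.6% of R848 cycling cells, and only 1 of them in 7, 3 and 11 cells.

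Markers of other cell types were read at different levels. The T cell markers gave 0 UMIs in Control (6 of 6 at 0), 17.0 CPM with CpG and 15.1 CPM with R848 (2 of 6 at 0 in both). The 8 B cell markers summed to 146, 129 and 139 CPM, with 2, 3 and 3 of them at 0, against 5183, 5509 and 5640.2 CPM in cells with at least 3 Cd79a UMIs below the limit (Cd79a-positive cells), which Cd79a itself chose. The 8 cDC1 markers summed to 88.7, 119 and 79.02 CPM, against 553, 221 and 486 CPM in cycling cells below the lysozyme limit. The 8 cDC2 markers summed to 386, 463 and 329 CPM, with 0, 3 and 1 of them at 0, against 413, 180 and 201 CPM in those cells below the limit, so they were not low, and were higher than there with CpG and R848. Non-cycling lysozyme-high cells had cDC2 sums of 477, 541 and 439 CPM. At least 2 UMIs of the dendritic cell genes Flt3, Xcr1, Clec9a and Zbtb46 were read in 1, 2 and 8 cycling cells, and at least 2 of T or NK cell genes in 0, 1 and 2.

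Near the limits the 2 cut-offs behaved differently. In Control, 21 lysozyme-high cells had a sum of 3 and 20 a sum of 4; with CpG these were 24 and 11, and with R848 66 and 34. The S-list genes took 10.4 of 10000 UMIs at a sum of 3 and 23.7 at 4 in Control, 7.16 and 20.2 with CpG, and 15.1 and 19.5 with R848. The G2/M-list genes went from 13.9 to 25.2, from 7.02 to 15.5 and from 9.34 to 12.9. Cells therefore ran on across the proliferation limit, and more so in R848. At the lysozyme limit there were few cells to move: 2, 0 and 3 cycling cells lay at 60 to 80 per 10000 UMIs, and 1, 0 and 0 at 80 to 100.

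**Figure D1:**
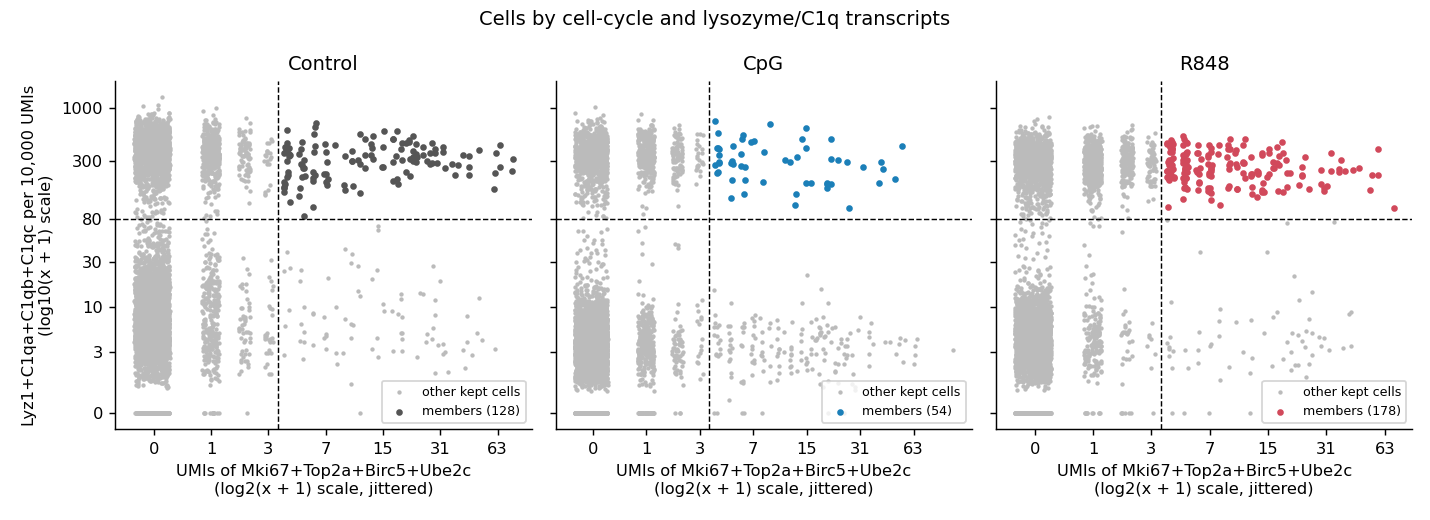
Each point is a kept cell with fewer than 3 Cd79a UMIs, in 1 panel per library: the x axis is log2(1 + UMIs summed over Mki67, Top2a, Birc5 and Ube2c), jittered, and the y axis log10(1 + Lyz1 and C1q UMIs per 10000). Dashed lines mark the limits of 4 and 80, and the coloured points at the upper right are the 128, 54 and 178 cycling cells described here.

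Cycling cells made up 5.91% of lysozyme-high cells in Control (128 of 2164, 95% interval 4.96 to 6.99), 3.96% with CpG (54 of 1363, 2.99 to 5.14) and 8.23% with R848 (178 of 2163, 7.11 to 9.47). The Control and R848 intervals did not overlap, and the CpG interval overlapped that of Control. The intervals cover counting error only and the rule sets these shares, so their overlap is a description and not a test between the groups. With every cell thinned to 5000 UMIs and a limit of 2, the shares were 6.03% (118 of 1958), 4.35% (55 of 1263) and 8.98% (184 of 2050). Here the lysozyme and Cd79a limits were applied again to the thinned counts. Too shallow to be thinned were 206, 102 and 121 lysozyme-high cells. The gap between R848 and Control depended on the limit: it was 11.3% against 6.89% at a sum of at least 3, but 3.93% against 3.56% at a sum of at least 8. The excess of R848 over Control was thus among cells with few UMIs of the 4 genes.

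Among all cycling cells with fewer than 3 Cd79a UMIs, the lysozyme-high ones were 60.4% in Control (95% interval 53.5 to 67.0), 23.0% with CpG (17.8 to 28.9) and 73.0% with R848 (66.9 to 78.4). The order of the libraries was the reverse among kept cells below the lysozyme limit, where 2.75%, 5.03% and 2.31% cycled. With CpG the lysozyme-high cells were also a smaller share of the kept cells, 27.1% against 40.8% in Control and 42.4% with R848. As a share of kept cells, cycling lysozyme-high cells were 2.41%, 1.08% and 3.49%. How the sorted types were mixed bears on these shares of all cells, and its part was not tested.

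The phase of the cycling cells differed between libraries. The S list held 44 genes (DNA replication factors and helicase subunits) and the G2/M list 49 (mitotic cyclins, kinases, kinetochore and spindle proteins), and neither held a gene of the rule. In the median Control cycling cell, S-list genes took 20.7 and G2/M-list genes 55.8 of 10000 UMIs. With CpG the medians were 14.99 and 37.5, and with R848 they were 30.1 and 24.0. Non-cycling cells had S medians of 3.63 in Control and 4.51 with R848, with CpG just below Control, and G2/M medians of 4.48 to 4.78. The S list exceeded the G2/M list in 31 of 128 Control cells (24.2%, 95% interval 17.1 to 32.6), 19 of 54 CpG cells (35.2%, 22.7 to 49.4) and 99 of 178 R848 cells (55.6%, 47.997 to 63.05). R848 cycling cells thus leaned to S-phase genes, where Control cells leaned to G2/M genes.

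**Figure D2:**
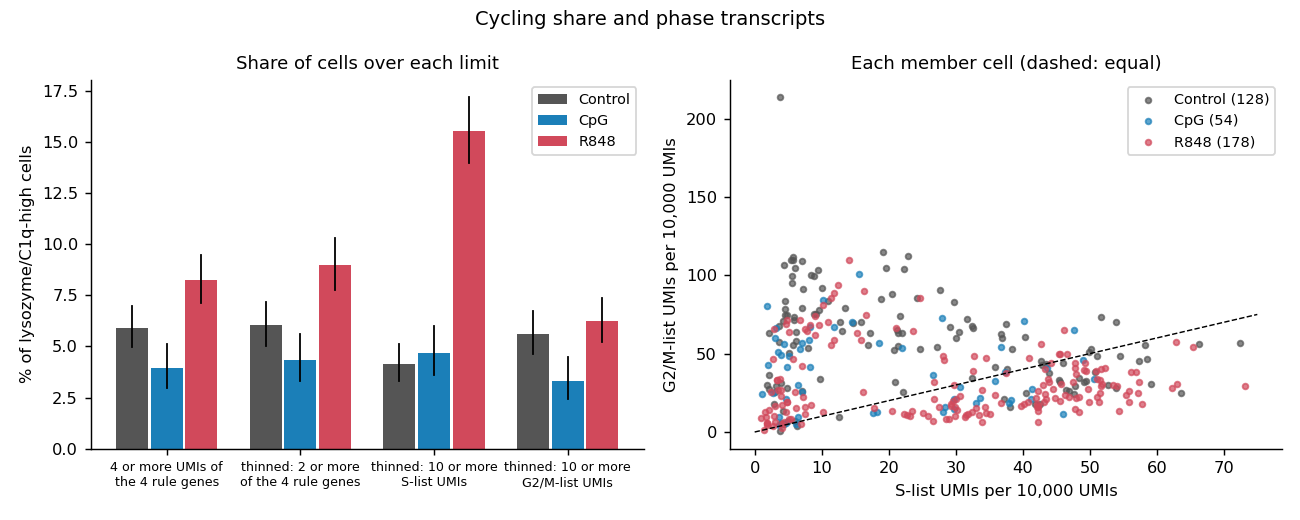
The left panel gives the percent of lysozyme-high cells called cycling, and of those with at least 10 S-list or G2/M-list UMIs after thinning, in each library, with 95% Clopper-Pearson intervals as lines, and the right panel places each cycling cell by its S-list (x axis) and G2/M-list (y axis) UMIs per 10000, with a dashed line where both are equal. R848 stands highest on the left for the cycling share, at 8.23%, and on the right 99 of its 178 cells lie on the S side of the line.

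Phase scores that ignore the 4 rule genes were also read over all lysozyme-high cells, each thinned to 5000 UMIs. At least 10 S-list UMIs were found in 4.14% of Control cells (81 of 1958, 95% interval 3.30 to 5.12), 4.68% of CpG cells (59 of 1261, 3.58 to 5.99) and 15.5% of R848 cells (317 of 2042, 14.0 to 17.2). At least 10 G2/M-list UMIs were found in 5.62%, 3.33% and 6.22%. At full depth, with a limit of 20 per 10000 UMIs, the S shares were 4.25%, 3.74% and 14.7%. Cells with at least 10 S-list UMIs but fewer than 10 G2/M-list UMIs were 1.12% of Control, 3.17% of CpG and 11.3% of R848 lysozyme-high cells. The S-phase share was thus highest in the R848 library, and its G2/M share (95% interval 5.21 to 7.36) was near that of Control. The intervals cover counting error in 1 library per group, so neither statement is a test of R848.

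Many of these S-list-high cells lay outside the cells that the rule selects. With R848, 65.9% of thinned cycling cells had at least 10 S-list UMIs (116 of 176), and so did 17.4% of cells with a sum of 1 to 3 (123 of 708) and 6.74% of non-cycling cells (78 of 1158). In Control these shares were 50.5%, 4.11% and 0.497%, and with CpG 46.3%, 5.28% and 1.43%. At least 10 G2/M-list UMIs were far rarer in non-cycling cells, at 0.142%, 0.130% and 0.0864%. The R848 comparison cells therefore include cells with S-phase transcripts.

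Cd4 was lower in cycling cells, Ccr2 somewhat higher, and Il22ra2 close to level, and these differences were small beside those of the cell cycle genes. Cd4 (chromosome 6, 124864692 to 124888221, GRCm38) encodes the surface coreceptor carried by part of the lysozyme-high phagocytes and was among the sort stains. It stood at 37.3 CPM (95% interval 28.8 to 47.7), 40.8 CPM (95% interval 28.6 to 56.5) and 34.9 CPM (95% interval 28.2 to 42.7) in cycling cells, from 64, 36 and 95 UMIs. In non-cycling cells Cd4 stood at 72.8, 73.0 and 69.2 CPM. The ratio of cycling to non-cycling cells was 0.513 (95% interval 0.392 to 0.660) in Control, 0.559 (95% interval 0.388 to 0.780) with CpG and 0.504 (95% interval 0.404 to 0.623) with R848, or -0.88, -0.77 and -0.89 on the log2 scale with 5 CPM added to both sides.

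The Cd4 difference moved with cell depth. Weighted to the depths of the cycling cells, the non-cycling level gave log2 differences of -0.40, -0.18 and -0.58. Thinned to 5000 UMIs, a Cd4 UMI was read in 13.5%, 14.8% and 10.8% of cycling cells and 22.9%, 24.1% and 22.2% of non-cycling cells, at that depth in both classes. In the Cd79a-positive cells, which should lack it, the share was 0%, 6.82% and 1.47%. Read the other way, cycling cells were 3.57% of thinned Control cells with a Cd4 UMI (15 of 420) and 6.24% of those without (96 of 1538). With CpG these were 2.82% and 4.71%, and with R848 4.38% and 9.76%. Cycling cells with at least 3 Cd4 UMIs did exist, 10, 6 and 16 in the 3 libraries.

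Ccr2 (chromosome 9, 124101950 to 124113557), the monocyte chemokine receptor, stood at 225 CPM (95% interval 203 to 249), 173 CPM (95% interval 147 to 203) and 132 CPM (95% interval 118 to 146) in cycling cells, against 194, 159 and 92.3 CPM in non-cycling cells. The ratio was 1.16 (95% interval 1.04 to 1.29) in Control, 1.09 (95% interval 0.916 to 1.28) with CpG and 1.43 (95% interval 1.27 to 1.60) with R848. The CpG interval held 1, and there the log2 value of 0.12 became 0.61 with thinned cells and -0.27 when cells with UMIs of other types were left out. After thinning, a Ccr2 UMI was read in 59.5%, 53.7% and 35.2% of cycling and 48.2%, 41.5% and 24.6% of non-cycling cells, against 2.27%, 4.55% and 1.47% of the Cd79a-positive cells. Cycling cells were 6.77% of thinned Control cells with a Ccr2 UMI and 4.58% of those without, with 5.33% and 3.49% for CpG and 11.4% and 7.61% for R848.

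Il22ra2 (chromosome 10, 19621998 to 19634681), which encodes a soluble inhibitor of interleukin 22, stood at 2796, 2276 and 591 CPM in cycling cells and 2911, 2289 and 700.2 CPM in non-cycling cells. Its ratio was 0.961 (95% interval 0.932 to 0.9896) in Control, 0.994 (95% interval 0.9496 to 1.04) with CpG and 0.844 (95% interval 0.8003 to 0.890) with R848, and the Control value of -0.06 and CpG value of -0.01 on the log2 scale changed sign under other settings. The R848 level was lower than Control in both classes, by log2 values of -2.23 in cycling and -2.05 in non-cycling cells. Within the cycling cells, Il22ra2 stood at 2888, 3505 and 2529.9 CPM in Control cells with a sum of 4 to 7, 8 to 15 and at least 16, at 2137, 2344 and 2434 with CpG and at 679.5, 622 and 405 with R848, so no order was shared by the libraries. Ccr2 stood at 277, 231 and 195 CPM in the same bands of Control, at 199, 134 and 159.5 with CpG and at 133, 168 and 97.5 with R848. It was lower in the band of at least 16 than in that of 4 to 7 in each library, while the middle band was lowest with CpG and highest with R848. Cd4, from few UMIs, stood at 25.6, 17.8 and 49.8 CPM in the bands of Control. It stood at 21.6, 93.5 and 37.3 with CpG and at 58.3, 6.04 and 18.9 with R848. The CpG band of 8 to 15 was thus above the Cd4 level of CpG non-cycling cells given above.

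**Figure D3:**
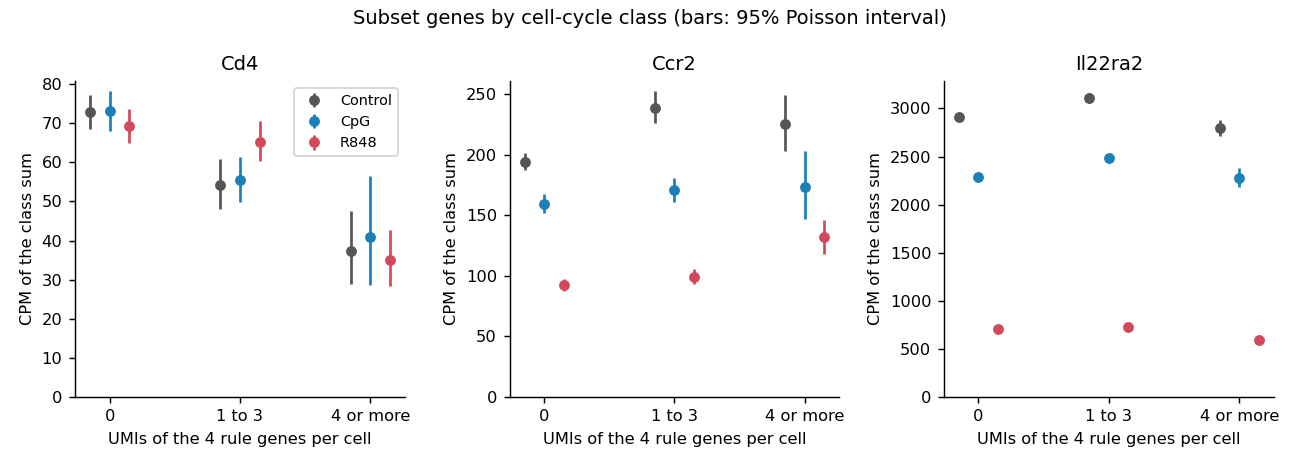
Levels of Cd4, Ccr2 and Il22ra2 (y axis, CPM of the class sum) in lysozyme-high cells with 0, 1 to 3, or at least 4 UMIs of the proliferation genes (x axis), by library, with 95% Poisson intervals as bars. Cd4 steps down from 0 to at least 4 in each library, Ccr2 is higher at 4 or more than at 0, and Il22ra2 differs far more between R848 and the other libraries than between the classes.

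Genes with at least 20 CPM on either side were compared between cycling and non-cycling cells of the same library. At least 2-fold higher were 350 of 5006 genes in Control (6.99%), 266 of 5150 with CpG (5.17%) and 238 of 5150 with R848 (4.62%). At least 2-fold lower were 41 (0.819%), 20 (0.388%) and 22 (0.427%). Of the 4517 genes measured in each library, 172 were higher and 2 lower in all 3. These background shares include the genes of the rule and those that accompany them, so the counts below describe the cells and test nothing.

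DNA synthesis genes were higher in the cycling cells. Of the S list, 31 of 33 measured genes were at least 2-fold higher in Control (median log2 difference 2.28), 30 of 32 with CpG (2.09) and 35 of 40 with R848 (1.90), where the medians of all measured genes were 0.11, 0.12 and 0.07. Rrm2, the ribonucleotide reductase subunit that limits nucleotide supply, stood at 201 against 1.67 CPM in Control, 137 against 0.743 CPM with CpG and 147 against 0.745 CPM with R848, with log2 differences of 4.95, 4.63 and 4.72. Pcna, the sliding clamp of the replication fork, stood at 78.8 against 15.3 CPM in Control, 71.4 against 27.4 CPM with CpG and 133 against 35.4 CPM with R848. Hells, a chromatin remodeller, was at 54.3 against 3.91 CPM in Control, 55.5 against 7.80 CPM with CpG and 108 against 17.3 CPM with R848. Both Pcna and Hells were highest in R848 cycling cells, and their R848 non-cycling levels were higher than in Control too.

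Of the helicase subunits, which open the DNA at each fork, Mcm2, Mcm5 and Mcm6 showed the same order. Mcm5 stood at 80.5 against 8.54 CPM in Control, 80.5 against 11.9 CPM with CpG and 109 against 25.2 CPM with R848, with log2 differences of 2.66, 2.34 and 1.91. Mcm6 stood at 59.5 against 9.05 CPM in Control, 62.3 against 11.9 CPM with CpG and 88.6 against 29.1 CPM with R848, and Mcm2 at 44.9 against 5.26 CPM in Control, 46.5 against 7.33 CPM with CpG and 65.1 against 19.98 CPM with R848. Mcm2, Mcm5 and Mcm6 were each higher in R848 cycling cells than in Control ones, and so were their non-cycling levels. For each of them the ratio of the classes was smallest with R848. Mcm5 and Mcm6 carry the E2F words in the promoters shown above. Ung, which removes uracil from DNA, was at 13.4, 17.00 and 33.4 CPM in the cycling cells. Dtl, which marks Cdt1 for destruction during replication, was at 46.3 CPM with R848 and 15.9 CPM with CpG. In Control cycling cells Dtl had 36 of the 1713877 UMIs, a count that is not on the CPM scale.

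Nucleotide synthesis genes were higher in part. At least 2-fold higher were 12 of 15 measured in Control (median 1.26), 9 of 16 with CpG (1.31) and 6 of 15 with R848 (0.97), and none was lower. Thymidine kinase Tk1 stood at 143 against 4.11 CPM in Control, 108 against 2.13 CPM with CpG and 152 against 10.3 CPM with R848. Thymidylate synthase Tyms stood at 170.4 against 8.47 CPM in Control, 118 against 9.56 CPM with CpG and 115 against 11.1 CPM with R848, with log2 differences of 3.70, 3.08 and 2.90. Lig1, the ligase that seals Okazaki fragments, was at 81.7 against 4.30 CPM in Control, 58.9 against 4.73 CPM with CpG and 111 against 13.1 CPM with R848, and this R848 level was above that of both other libraries.

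Mitotic genes were higher in cycling cells of each library, and their levels were highest in Control. Of the G2/M list, 40 of 42 measured genes were at least 2-fold higher in Control (median 3.22), 34 of 38 with CpG (2.71) and 35 of 38 with R848 (2.34). Ccnb2, a B-type cyclin, stood at 162 against 1.48 CPM in Control, 112 against 0.650 CPM with CpG and 76.8 against 0.542 CPM with R848. Cdk1, its kinase partner, stood at 179 against 3.91 CPM in Control, 99.8 against 3.71 CPM with CpG and 103 against 5.22 CPM with R848, and Cdc20, which activates the anaphase-promoting complex, at 89.3, 49.9 and 20.9 CPM in cycling cells. Cenpa, the histone of the centromere, was at 229.9 against 2.89 CPM in Control, 161 against 1.39 CPM with CpG and 86.7 against 1.49 CPM with R848. The kinetochore motor Cenpe was at 107 against 0.899 CPM in Control, 79.4 against 0.557 CPM with CpG and 60.6 against 1.22 CPM with R848, and the outer kinetochore gene Spc24 at 166, 107 and 97.4 CPM in cycling cells, with log2 differences of 4.55, 4.02 and 3.76. Cdca3, a trigger of mitotic entry, and Ccna2, cyclin A2, gave 4.60, 4.02 and 3.63 and 4.44, 3.55 and 3.49.

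Some of the higher genes were outside the cell cycle lists. Of 88 eligible genes higher in all 3 libraries, 38 were in none of the lists. Among the highest, Knstrn and Spc25, of the spindle and kinetochore, gave log2 differences of 3.89, 3.41 and 3.25 and 3.67, 3.22 and 3.24, Prc1, which bundles the central spindle, 4.51, 2.95 and 3.30, and Mad2l1, of the spindle checkpoint, 3.02, 2.88 and 2.48. The condensin subunit Smc2 gave 3.27, 2.73 and 2.53. The linker histone Hist1h1b stood at 92.8 against 0.706 CPM in Control, 73.7 against 0.464 CPM with CpG and 66.5 against 0.610 CPM with R848, and Hist1h1e and Hist1h2ae gave 2.72, 2.37 and 2.23 and 3.32, 2.88 and 2.87. Histone genes of this cluster are near-identical and mostly lack poly(A) tails, so their values are uncertain. Lockd, a long noncoding RNA, gave 4.72, 3.80 and 3.54, and Ezh2, the methyltransferase of H3K27, 2.51, 2.48 and 2.19.

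The chromatin and tubulin list was higher in nearly every measured member: 15 of 15 in Control (median 2.36), 14 of 15 with CpG (1.67) and 14 of 15 with R848 (1.47). Stmn1, which destabilises microtubules, stood at 1064 against 21.8 CPM in Control, 587 against 11.9 CPM with CpG and 495 against 16.7 CPM with R848. Hmgb2, a DNA-bending protein, stood at 1251 against 88.1 CPM in Control, 877 against 77.2 CPM with CpG and 633 against 74.7 CPM with R848, and H2afz, a histone variant, at 3716 against 1002 CPM in Control, 2851 against 895 CPM with CpG and 2578 against 855 CPM with R848. Tuba1b, an alpha-tubulin, gave log2 differences of 2.83, 1.72 and 1.45. Tubulins have close copies, so the Tuba1b value may share reads with them.

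Cyclins and inhibitors did not all go one way. Of the cyclin and CDK list, 13 of 21 measured genes were at least 2-fold higher in Control and 1 lower (median 1.30), 9 of 19 and 0 with CpG (0.92), and 11 of 19 and 1 with R848 (1.12). Ccne1, cyclin E1 of the entry into S phase, stood at 34.4 against 3.27 CPM in Control, 20.4 against 3.25 CPM with CpG and 30.1 against 4.20 CPM with R848. Ccnd1, the growth-factor cyclin D1, was slightly lower in cycling cells, at 199 against 282 CPM in Control, 394 against 494 CPM with CpG and 270.1 against 326 CPM with R848. Ccnd2, cyclin D2, was lower in Control cycling cells with a log2 difference of -1.52, and stood at 28.0 against 90.0 CPM in Control, 263 against 360.5 CPM with CpG and 482 against 762 CPM with R848. Ccnd3, cyclin D3, was higher in each library, with log2 differences of 0.73, 0.51 and 0.87. D-type cyclins therefore differed among themselves, and only Ccnd3 was higher in the cycling cells of all 3 libraries.

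The CDK4 and CDK6 inhibitors Cdkn2c and Cdkn2d were higher in cycling cells. Cdkn2c stood at 59.5 against 2.31 CPM in Control, 13.6 against 0.278 CPM with CpG and 15.8 against 0.813 CPM with R848, and Cdkn2d at 89.9 against 14.95 CPM in Control, 60.1 against 11.6 CPM with CpG and 24.99 against 6.43 CPM with R848. The p53 target Cdkn1a, p21, was -0.06, -0.18 and -1.20 on the log2 scale, so it was lower by over 2-fold only with R848. Cdkn1b, p27, a brake of quiescent cells, stood at 60.7 against 42.4 CPM in Control, 18.1 against 17.9 CPM with CpG and 13.2 against 15.4 CPM with R848. Its Control level was above that of both agonist libraries in either class.

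**Figure D4:**
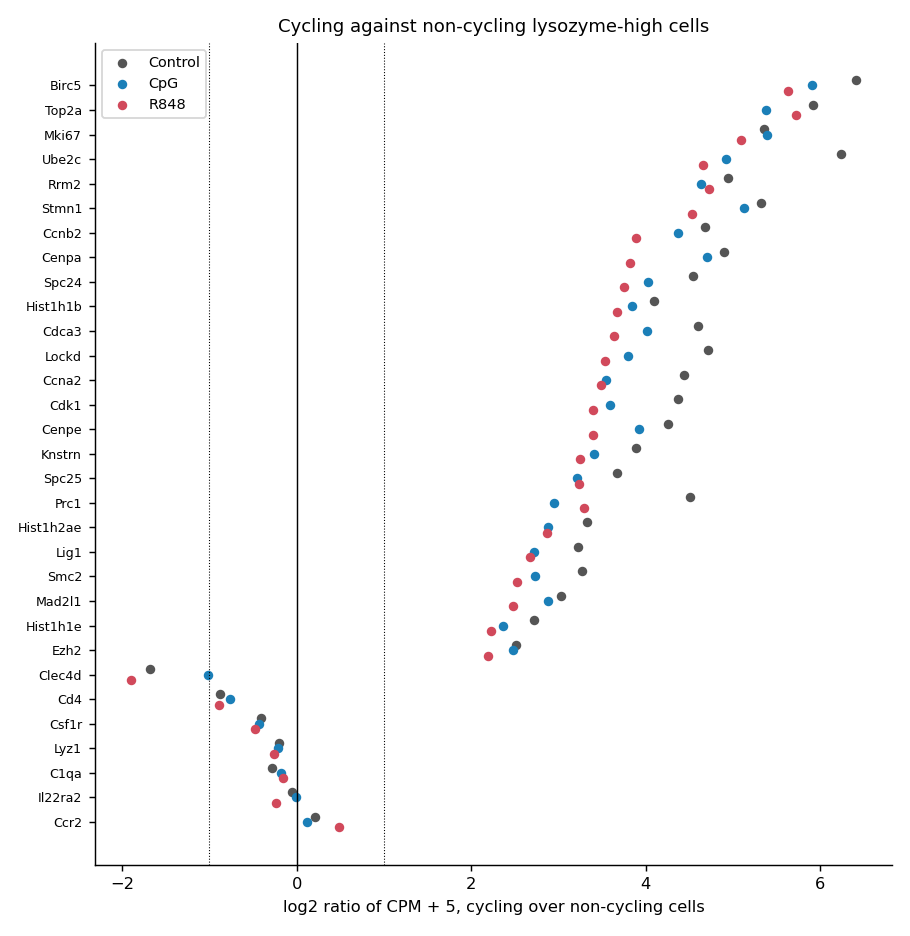
Log2 ratio of cycling over non-cycling lysozyme-high cells (x axis, 5 CPM added to both levels) for 24 of the highest named genes and 7 others (rows), with 1 point per library and dotted lines at -1 and 1. Stmn1 and Rrm2 lie between 4.53 and 5.32, while Cd4, Csf1r, Lyz1, C1qa and Clec4d lie left of 0.

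Genes of the phagocyte programme had small median differences between the classes. None of the measured macrophage genes was at least 2-fold higher in any library. Lower were 1 of 9 in Control, 0 of 10 with CpG and 0 of 9 with R848, with medians of -0.43, -0.41 and -0.17. Of all measured genes, 6.99%, 5.17% and 4.62% were higher and 0.819%, 0.388% and 0.427% lower, so these counts say little for so few macrophage genes. Of the macrophage genes, 9, 9 and 8 lay below 0. Csf1r, the receptor for the macrophage growth factor CSF1, stood at 609 against 811 CPM in Control, 478 against 645 CPM with CpG and 233 against 326 CPM with R848. Timd4, a phosphatidylserine receptor of long-lived resident macrophages, was the lower one in Control, at 6.42 against 33.6 CPM in Control, 26.1 against 35.6 CPM with CpG and 15.4 against 18.1 CPM with R848. Mertk, a receptor for dying cells, gave log2 differences of -0.60, -0.47 and -0.23, and Cd63, of late endosomes, -0.82, -0.53 and -0.65.

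No measured lysosome gene (23, 24 and 24) passed 2-fold, with medians of -0.23, -0.19 and -0.24, and 19, 23 and 22 of them lay below 0. The MHC class II list had none past 2-fold either (12, 9 and 9 measured, medians -0.10, -0.17 and 0.14). The shares of all measured genes past 2-fold, given above, were also low, so these counts add little to the medians. Clec4d, a C-type lectin that binds microbial glycolipids, was the 1 eligible gene at least 2-fold lower in all 3 libraries, at 17.5 against 66.9 CPM in Control, 47.6 against 102 CPM with CpG and 24.3 against 104 CPM with R848. The chemokine Ccl17, a ligand of CCR4, was lower in Control, at 37.3 against 116 CPM in Control, 95.2 against 179 CPM with CpG and 135 against 192 CPM with R848. Il18bp, a decoy for interleukin 18, was at 133 against 298 CPM in Control, 307 against 469.8 CPM with CpG and 330.0 against 522 CPM with R848, with log2 differences of -1.14, -0.60 and -0.65. Of the measured monocyte genes (3, 4 and 3) none passed 2-fold, and Plac8 stood at 132 against 114 CPM in Control, 126 against 85.0 CPM with CpG and 82.3 against 45.5 CPM with R848. All 3 Plac8 differences were above 0, as was each Ccr2 difference in the main setting. After thinning, however, a Plac8 UMI was read in a smaller share of cycling than of non-cycling cells in Control. With CpG and R848 that share was larger in cycling cells. The Ccr2 difference with CpG changed sign when cells with UMIs of other types were left out, as given above.

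The agonists were next compared with Control within the cycling cells. Both comparisons share the Control library, and the 3 sets of cells differ in phase as given above, whose part in the differences was not tested. At least 2-fold higher were 220 of 5282 genes with CpG (4.17%) and 265 of 5276 with R848 (5.02%), and lower were 87 (1.65%) and 140 (2.65%). In non-cycling cells the shares were 3.21% higher and 0.617% lower with CpG, and 4.72% and 1.89% with R848. Between the agonists, R848 was higher for 94 of 5296 genes (1.77%) and lower for 86 (1.62%) in cycling cells, and the shares in non-cycling cells were 1.66% and 0.769%.

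Cycling cells carried the interferon response of both treatments. Of the measured interferon-stimulated genes, 33 of 36 were at least 2-fold higher with CpG (median log2 difference 1.90) and 33 of 36 with R848 (1.91), where the medians of all measured genes were 0.04 and 0.02. In non-cycling cells they were 36 of 37 (2.17) and 36 of 38 (2.19). Irf7, the transcription factor that amplifies interferon, stood at 57.2, 828 and 1092 CPM in the cycling cells of Control, CpG and R848. Isg15, a ubiquitin-like modifier, stood at 92.8, 1113 and 853 CPM, and Ifit3, which binds viral RNA and has a close copy, had log2 differences of 3.85 and 3.55. Ms4a4c, a membrane protein of the interferon response, stood at 4.67, 177 and 279 CPM, against 4.24, 139.9 and 268 in non-cycling cells.

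Chemokines had larger differences, with 8 of 9 higher under CpG (median 2.93) and 9 of 10 under R848 (4.13), against 7 of 10 (2.11) and 8 of 11 (2.83) in non-cycling cells. Cxcl10, an attractant of CXCR3-bearing T cells, stood at 34.4, 1289 and 534 CPM and was 37.4-fold (95% interval 28.8 to 49.5) higher with CpG. Cxcl9, with the same receptor, stood at 8.17, 131 and 880.2 CPM, so its R848 level was the highest. Ccl5, a T cell attractant, stood at 9.34, 405 and 4679 CPM, and 240 of its 357 CpG UMIs came from 1 cell, without which the CpG level was 136 CPM. Free RNA was estimated to give 3.24, 79.3 and 139 CPM of Ccl5, which is most of the CpG level without that cell and a small part of the R848 level. Ccl4 gave 4.68 with R848, and Ccl12 4.57 with CpG and 3.54 with R848.

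Other genes set the agonists apart. Ly6a, Sca-1, an interferon-responsive surface protein, stood at 5.83, 71.4 and 396 CPM in cycling cells and at 3.47, 23.7 and 171 in non-cycling cells. Ltc4s, the leukotriene C4 synthase, stood at 187, 246 and 26.1 CPM, so it was low only with R848, and Serpina11, of the serpin family, at 84.6, 60.1 and 2.94 CPM. Notch2, the Notch receptor, gave -2.00 with R848, and Pxdc1 -2.39. Tsku, a secreted leucine-rich protein, was lower with both, at 68.8, 7.94 and 8.45 CPM. Aldh1a2, which makes retinoic acid, stood at 1.17, 66.9 and 6.98 CPM, from 2 UMIs in Control, and the metallothionein Mt2 at 60.7, 215 and 32.3 CPM. Both were lower with R848 than with CpG, with log2 differences of -2.58 and -2.56, but Aldh1a2 was not lower with R848 than in Control. Of the CpG UMIs, 22 of 59 for Aldh1a2 and 72 of 190 for Mt2 came from 1 cell each. Ccl8 was read only with R848, at 107 CPM, against 0 UMIs in Control and CpG cycling cells, where 3 UMIs would be 1.75 and 3.40 CPM, and 135 of its 290 UMIs came from 1 cell.

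Among maturation genes, Ccr7, the receptor that leads dendritic cells to lymph nodes, stood at 8.75, 241 and 96.3 CPM in cycling cells, with 16.2, 122 and 219.6 in non-cycling cells. Of the 213 CpG UMIs, 72 came from 1 cell, and the level without it was 164 CPM. Free RNA was estimated to give 5.85, 51.6 and 36.3 CPM of Ccr7, which is most of the Control level and a large part of the R848 level in cycling cells. At least 5 Ccr7 UMIs were read in 1, 6 and 17 cycling cells, or 0.781%, 11.1% and 9.55% of them, and in 5.68% of CpG and 13.8% of R848 non-cycling cells. The 7 markers of mature dendritic cells, all detected, include Ccr7 itself, so their sum is not separate from its level. They summed to 195, 754 and 553 CPM in cycling cells and 243, 544 and 834 in non-cycling cells. The part of mature dendritic cells in the Ccr7 levels was not tested. MHC class II genes at least 2-fold lower were 0 of 10 with CpG (median -0.46) and 2 of 10 with R848 (-0.61). H2-Aa, an MHC class II chain, stood at 7643, 5456 and 4871 CPM.

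The cell cycle genes themselves differed between the libraries within cycling cells. Of 42 measured G2/M-list genes, 10 were at least 2-fold lower with CpG (median -0.60) and 16 with R848 (-0.81), and none was higher. Of the S list, 1 of 36 was lower with CpG (median -0.13) and 2 of 41 higher with R848 (0.31). The 2 were Cdca7, a target of MYC and E2F, and Ung, at 1.18 and 1.06. Of all measured genes, 1.65% were lower with CpG, and with R848 2.65% were lower and 5.02% higher. The S-list counts were near these shares. Ccnd2 was higher on the log2 scale with CpG by 3.02 and with R848 by 3.88, and in non-cycling cells by 1.94 and 3.01. The inhibitors Cdkn2c and Cdkn1b had log2 differences with CpG of -1.79 and -1.51 and with R848 of -1.63 and -1.85. Zfp691, a zinc finger gene, and the histone gene Hist1h2ap, which has near-identical copies, gave -1.85 and -2.36 with CpG.

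**Figure D5:**
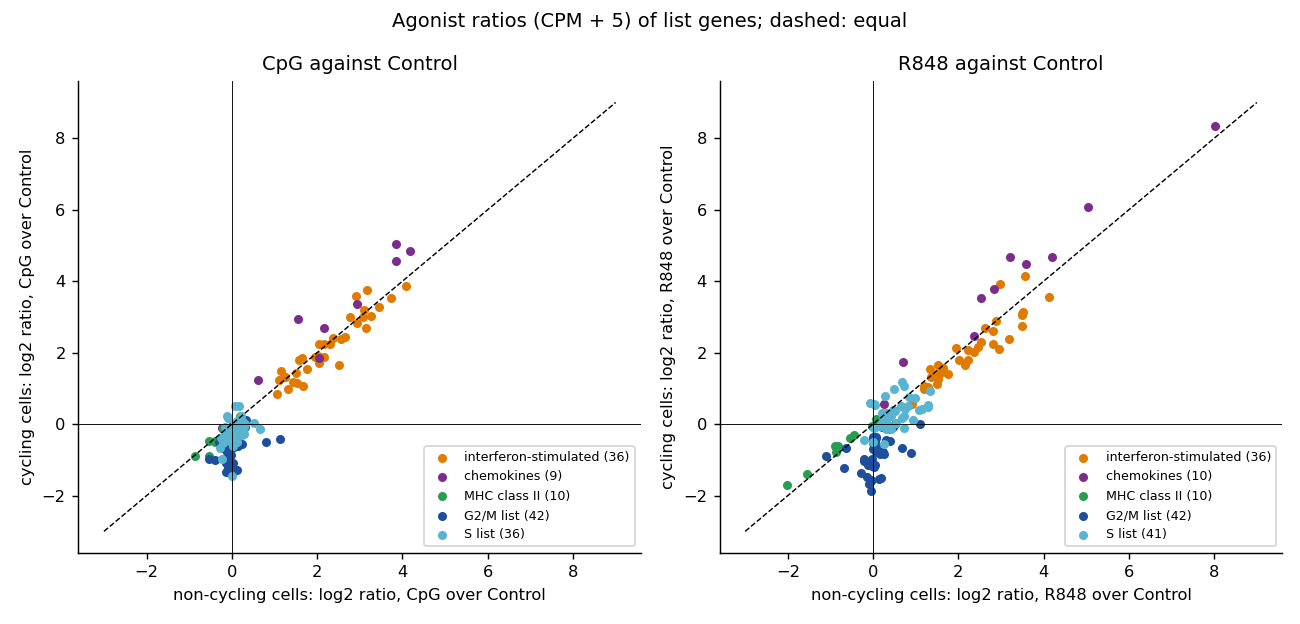
Log2 ratio of CpG or R848 to Control (1 panel each, 5 CPM added to both levels) for single genes in non-cycling (x axis) and cycling (y axis) lysozyme-high cells, coloured by list. Most interferon-stimulated genes and chemokines lie at the upper right in both panels, and 41 of the 42 G2/M-list genes measured in cycling cells lie below 0 on the y axis.

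Some levels rested on 1 cell. Gzma, a granule protease of cytotoxic lymphocytes, was read at 159 CPM in R848 cycling cells, but 432 of its 433 UMIs came from 1 cell, without which it was 0.371 CPM. Nkg7, of the same granules, had 36 of 36 UMIs in 1 cell. Il12b, the p40 chain of interleukin 12, stood at 66.5, 11.3 and 293 CPM, and 113 of its 114 Control UMIs came from 1 cell, without which the Control level was 0.589 CPM. Of the 10 CpG UMIs of Il12b, 8 also came from 1 cell. The Gzma level with R848 and the Il12b level in Control therefore describe single cells and not the group.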

How the data were processed

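UMIs (unique transcript molecules) were measured by 10x Genomics 3' sequencing in 3 libraries. The deposited files hold raw counts of UMIs for 27998 genes in every cell barcode, not normalised by the authors. Per the submitters' processing notes, Cell Ranger 2.0.0 and mm10 were used. Which annotation release it took is not given in the sources used. The number of unused columns was 0, and 2 list genes and 1 marker gene were not analysed here.

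The cells, gene lists and named-gene rule were chosen with earlier results of these data known. For each class and library the UMIs of its cells were added up and scaled to counts per class total (CPM). Genes with at least 20 CPM on either side were measured, and log2 ratios took 5 CPM added to both levels. No test was possible with 1 library per group. Intervals at 95% were exact Poisson for levels, Clopper-Pearson for shares and conditional binomial for ratios, and cover counting error only. Class sums ran from 882160 UMIs in CpG cycling cells to 15581498 in Control non-cycling cells. Thinning drew 5000 UMIs per cell without replacement.

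Genes were named from the 15 highest, the 12 highest outside the cell cycle lists and the 12 lowest over the 3 libraries (1 was eligible), from the 6 highest and 6 lowest for each agonist, and from the 4 highest and 4 lowest between the agonists. To be eligible a gene needed 50 CPM and 20 UMIs on the higher side, a 2-fold difference and a ratio interval without 1. Members of described lists were added.

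Doublets were kept. One alternative removed the highest Scrublet scores at 0.8% per 1000 cells (225, 202 and 209 cells, among them 12, 6 and 11 cycling cells), and others changed the limits, pseudocount, minimum, scaling or cells. The scripts were tested on simulated data. Coordinates came from GENCODE release M21 and promoters from RefSeq, both on GRCm38. Python 3.11.15, numpy 2.4.6, scipy 1.17.1, pandas 2.3.3, scanpy 1.11.5 and matplotlib 3.10.9 were used.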

Additional observations from a re-analysis of the deposited data

Results flagged for a closer look

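Il12b differed in direction between the agonists in cycling cells, without a test of that difference. Against Control, its log2 difference was -2.13 with CpG and 2.06 with R848. The cycling cells of Control stood at 66.5 CPM, those of CpG at 11.3 and those of R848 at 293. The Control level came from 113 of 114 UMIs in 1 cell. The CpG level came from 8 of 10 UMIs in 1 cell. With the top cell of each library left out, the CpG difference was 0.39, at 2.32 against 0.589 CPM in Control. So few UMIs were left there that CpG and Control cannot be told apart, while R848 stood at 232 CPM.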

How the results depend on the processing

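Of the values that answer a comparison, 239 stayed within counting error or within 1.5 times the count under the alternatives, and 61 moved. None of the settings that left out single replicates could be run with 1 library per group, and no paired analysis was possible because each group is 1 library. Cycling shares moved with the limit: at a sum of at least 3 to 5.72% for CpG and 11.3% for R848, and at a sum of at least 8 to 3.56%, 2.05% and 3.93% for Control, CpG and R848. Counts of higher genes were 156 (CpG) at a sum of at least 3, 424 (CpG) at a sum of at least 8, 222, 155 and 153 with 20 CPM added, 400 (CpG) with no minimum, and 107, 55 and 54 with a minimum of 100 CPM. Counts of lower genes, which rest on few UMIs, were 6 (CpG) and 10 (R848) at a sum of at least 3, 73, 65 and 70 at a sum of at least 8, and 111 (CpG) with thinned cells. They were 65 (Control) and 32 (CpG) with 1 CPM added, 14, 2 and 6 with 20 CPM added, 71 (Control) and 62 (CpG) with no minimum, 13, 1 and 8 with a minimum of 100 CPM, 79, 113 and 61 when cells with UMIs of other types were left out, and 13 (CpG) with non-cycling cells weighted by depth. Interferon-stimulated genes higher with R848 were 19 with a minimum of 100 CPM, where fewer genes are tested.

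Cd4 log2 differences were -0.47 (R848) at a sum of at least 3, -0.31 (CpG) and -2.06 (R848) at a sum of at least 8, -0.62 (R848) with thinned cells, and -0.40, -0.18 and -0.58 weighted by depth. Ccr2 was 0.61 (CpG) and 0.21 (R848) with thinned cells, -0.27 (CpG) and 0.76 (R848) with cells of other-type UMIs left out, and 0.20 (R848) weighted by depth. Il22ra2 was 0.0047, 0.089 and -0.16 at a sum of at least 3, 0.068 (CpG) and -0.46 (R848) at a sum of at least 8, 0.078 (Control) and 0.21 (CpG) with thinned cells, -0.14 (Control) and -0.10 (CpG) with median-ratio scaling, -0.51 (CpG) with cells of other-type UMIs left out, -0.17 (CpG) and -0.50 (R848) weighted by depth, and 0.058 (CpG) and -0.36 (R848) with cells of at least 5 Ccr7 UMIs left out, the last chosen after seeing the data. Il12b with CpG reversed to 0.64 with cells of other-type UMIs left out and to 0.39 without the top cell. Among other named genes 428 values moved and 1143 did not. Cells with other-type UMIs left out kept 62, 24 and 71 cycling cells. Beyond the construction of each setting, the cause was not tested. The CpG values rest on 54 cycling cells and 882160 UMIs.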

Other observations

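Other gene lists were compared between cycling and non-cycling cells with few genes past 2-fold. Of the measured glycolysis genes, 0 of 13 passed in each library, with medians of 0.22, -0.15 and -0.04 on the log2 scale for Control, CpG and R848. Growth-factor receptor genes gave 0 of 7, 0 of 7 and 0 of 6, with medians of -0.20, -0.25 and -0.30. Genes for the clearance of dying cells gave none higher, and 1 of 8 lower in Control, with medians of -0.22, -0.05 and -0.06. Of the maturation genes, 1 of 16 was higher in Control, 1 of 19 with CpG and 0 of 21 with R848, where 2 were lower. This list holds Il12b, with 113 of its 114 UMIs in Control cycling cells from 1 cell. Of all measured genes, 6.99%, 5.17% and 4.62% were higher and 0.819%, 0.388% and 0.427% lower. Counts of 0 or 1 in such short lists therefore say little. Interferon-stimulated genes gave 0 of 22, 0 of 37 and 0 of 38, with medians of 0.04, -0.14 and -0.29.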
